A study of Mus musculus with 7 samples.

Results

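The threonine tRNAs were followed in mouse glial cells as 3 anticodon pools, Thr-AGT, Thr-CGT and Thr-TGT, of the 52 pools listed, and as 14 isodecoders of the 217 listed. An anticodon pool holds all tRNAs with the same anticodon, and isodecoders are members of 1 pool that differ elsewhere in the tRNA body. T stands for U in these names, as in the deposited tables. The members were chosen by name, and no measured value entered that choice within the family. The family itself was selected on a known result, the lower level of Thr-AGT-6 in oligodendrocytes than in their progenitors, so every level and share of that isodecoder that rests on the oligodendrocyte libraries, against progenitors or astrocytes, is a description and its p is no independent support. All 14 isodecoders had a mean of at least 1 RPM (reads per 1000000 tRNA reads), the minimum for a test. The row names join 17 genes, 9 in Thr-AGT, 4 in Thr-CGT and 4 in Thr-TGT. Identical genes share a row, so Thr-AGT-1 stands for 3 genes and Thr-TGT-3 for 2.

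tRNAs were measured by QuantM-seq, in which an adapter is ligated to mature, deacylated tRNAs before they are reverse transcribed and sequenced. The 7 libraries came from 3 groups of cultured 129S/SvEv mouse cells: oligodendrocyte progenitor cells (OPCs, n = 3), oligodendrocytes (OLs, n = 2) and astrocytes (n = 2). OPCs had been made from epiblast stem cells and were grown with bFGF and PDGFA. OLs were obtained from such OPCs in medium with noggin, IGF-1, cyclic AMP, NT3 and the thyroid hormone T3, and astrocytes in medium with bFGF, Hb-EGF, CNTF and BMP4. All 3 groups therefore share an in vitro origin, and OL cultures of this kind keep some cells that have not matured. The libraries hold tRNAs only, so the cell type labels could not be checked against marker mRNAs here.

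Threonine is encoded by the box of codons ACU, ACC, ACA and ACG. The first base of the anticodon of Thr-AGT is an A that the ADAT2 and ADAT3 deaminase turns into inosine, which lets this tRNA read ACU and ACC. Thr-TGT reads ACA, and Thr-CGT reads ACG. Codon reading was not measured here, and a pool may read further threonine codons, so a pool level is not tied to a single codon. tRNAs that decode codons beginning with A carry N6-threonylcarbamoyladenosine on the base after the anticodon, made by YRDC and the KEOPS complex, and threonine tRNAs are also known for a 3-methylcytidine at the start of the anticodon loop.

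To show where these features lie, the sequence of 1 Thr-AGT gene is given, with the anticodon in capitals. It is n-TTagt9 on the minus strand of GRCm38 (mm10), chr7:35234770-35234843, which is intergenic in the GENCODE annotation, and its sequence was read from a RefSeq window that covers it.

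n-TTagt9: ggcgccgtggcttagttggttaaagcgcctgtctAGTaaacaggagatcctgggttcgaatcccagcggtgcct

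The gene is 74 bases long, without the CCA that is added after transcription. The anticodon occupies bases 35 to 37 counted from the 5′ end, in a loop of 7 bases closed by 5 base pairs. The loop opens with the c that carries the methyl group in threonine tRNAs, and an a follows the anticodon. RefSeq lists 17 threonine tRNA genes on this build, of which 7 lie on chromosome 13, 5 on chromosome 11, 3 on chromosome 14 and 1 each on chromosomes 7 and 16. Of these, 14 are intergenic, 2 lie in introns of the noncoding genes Gm11292 and Gm15738, and 1 overlaps an exon of the lincRNA Gm11205. The genes range from 72 to 74 bases, so length hardly enters a comparison of levels between them. The sources used here do not tie the RefSeq symbols to the isodecoder numbers, so n-TTagt9 stands for its pool and not for a numbered isodecoder.

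The libraries held between 1339021 and 2627351 reads assigned to tRNAs, of which 14408 to 31842 were threonine tRNAs. A count of 0 would have allowed up to 3 reads, or 1.14 to 2.24 RPM depending on the library. The RPM total also counts reads that fall outside the listed cytosolic tRNAs, which made up 3.55 and 3.9% of the OL libraries, 4.98 to 6.94% of the OPC libraries and 7.74 and 7.88% of the astrocyte libraries. PCR copies carried no mark, so read intervals and limits hold for counting error alone. An RPM value is a share of tRNA reads, so fewer cells that use a tRNA and less of it per cell cannot be told apart.

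The 3 threonine pools together were a small part of the tRNAs in every library. Their sum was 10760, 10202 and 13089 RPM in OPC replicates 1 to 3, 12497 and 14186 RPM in OL replicates 1 and 2 and, for astrocytes, 11875 and 10755 RPM. OPC replicate 3 lay between the OL libraries, so the groups overlapped, whereas OLs lay above both astrocyte libraries. The sum was 1.21% ± 0.148 of the listed cytosolic tRNAs in OPCs (SD, n = 3), 1.39% ± 0.128 in OLs (n = 2) and 1.23% ± 0.0846 in astrocytes (n = 2). The mean in OLs was 1991 RPM higher than in OPCs (two-sided exact permutation p = 0.4, adjusted over 3 comparisons 0.6). It was 2027 RPM higher than in astrocytes (exact permutation p = 0.333, adjusted 0.6). Astrocytes and OPCs differed by -35.6 RPM (exact permutation p = 1), and the sign of this difference turned with the scaling. The smallest p these group sizes allow between OLs and astrocytes is 0.333. The smallest against OPCs is also above 0.05, so none of these tests could pass 0.05.

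Thr-AGT, which reads ACU and ACC, was the most abundant pool and ranked 33rd of the 52 pools by mean RPM. Its level was 5639.9, 5023 and 6177 RPM in the OPC libraries, 6617 and 7889 RPM in OLs, and 7039 and 6103 RPM in astrocytes. Both OL libraries lay above the 3 OPC libraries, and the astrocyte libraries overlapped with both other groups.

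Thr-CGT, a reader of ACG, ranked 38th. Its level was 2861, 3078 and 4053 RPM in OPCs, 3184 and 3336 RPM in OLs, and 2334 and 2243 RPM in astrocytes. Both astrocyte libraries lay below all 5 others, and OLs fell within the range of the OPCs.

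Thr-TGT, a reader of ACA, ranked 40th. Its level was 2259, 2102 and 2859 RPM in OPCs, 2696 and 2961 RPM in OLs, and 2502 and 2409 RPM in astrocytes. OPC replicate 3 lay between the OL libraries, and the astrocyte libraries lay between OPC replicates 1 and 3. OPC replicate 3, the deepest OPC library, was the highest of the OPCs in every threonine pool.

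**Figure D1:**
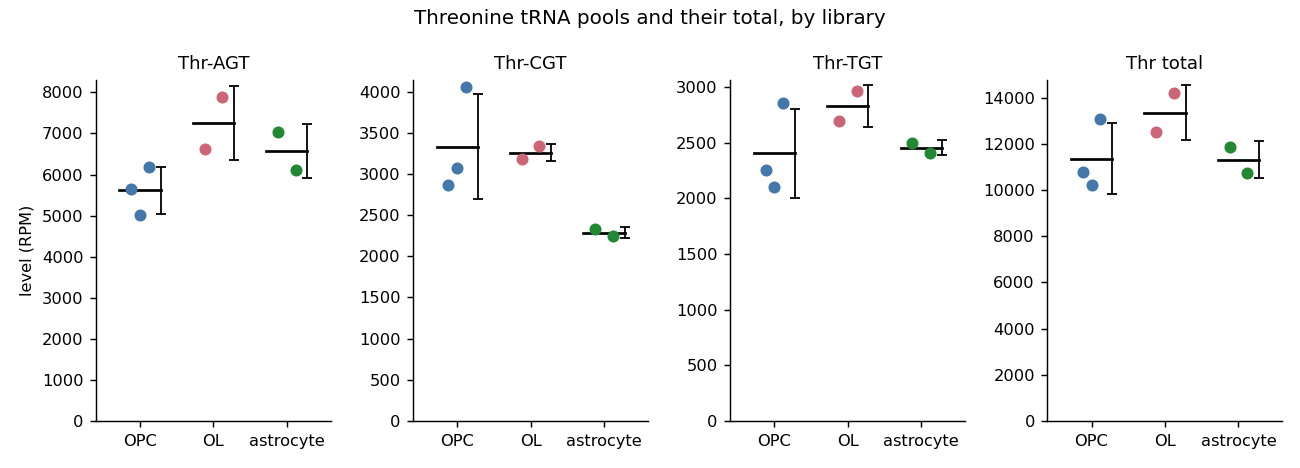
Levels of the 3 threonine pools and of their sum in RPM, on linear axes that start at 0, with 1 point per library (3 OPC, 2 OL, 2 astrocyte), the mean as a line and the SD as a bar. Thr-CGT is at 2243 and 2334 RPM in astrocytes, below all OPC and OL libraries, and Thr-AGT is higher in both OL libraries than in any OPC library.

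No threonine pool changed between the groups at an adjusted p under 0.01. Changes were differences of log2(RPM + 1), tested with limma over all 52 pools and adjusted by Benjamini-Hochberg. In OLs against OPCs, Thr-AGT differed by 0.37 on the log2 scale (SE 0.13, adjusted p = 0.182), Thr-TGT by 0.24 (SE 0.17, adjusted p = 0.325) and Thr-CGT by -0.01 (SE 0.18, adjusted p = 0.975). In astrocytes against OPCs, the differences were 0.23 for Thr-AGT (SE 0.13, adjusted p = 0.446), 0.04 for Thr-TGT (SE 0.17, adjusted p = 0.912) and -0.53 for Thr-CGT (SE 0.19, adjusted p = 0.351). In OLs against astrocytes, they were 0.14 for Thr-AGT (SE 0.14, adjusted p = 0.571), 0.20 for Thr-TGT (SE 0.17, adjusted p = 0.519) and 0.51 for Thr-CGT (SE 0.18, adjusted p = 0.251). The background was as low, with 0% of the 52 pools called at 0.01 in each of the 3 comparisons. At an adjusted p under 0.05, none of the 3 passed in any comparison, where 7.69% of all pools passed in OLs against OPCs and 0% in the others. At an unadjusted p under 0.05, 1 of the 3 passed in each comparison, where 25% of all pools did in OLs against OPCs, 11.5% in astrocytes against OPCs and 15.4% in OLs against astrocytes.

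In OLs against OPCs, 1 threonine pool, Thr-AGT, lay above without overlap, as did 32.7% of all pools, while 15.4% lay below and 48.1% did not overlap in all. In astrocytes against OPCs, Thr-CGT lay below, where 19.2% of all pools did, 13.5% lay above and 32.7% did not overlap. In OLs against astrocytes, 2 threonine pools, Thr-CGT and Thr-TGT, lay above, where 48.1% of all pools did, 9.62% lay below and 57.7% did not overlap. The median over all 52 pools was 0.12, 0.00 and 0.11 in these comparisons, and median-of-ratios scaling brought the last of them to -0.0003.

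The intervals leave room for moderate changes. The 95% interval of the Thr-AGT difference between OLs and OPCs ran from 0.02 to 0.72, and that of Thr-CGT between astrocytes and OPCs from -1.02 to -0.03. For Thr-TGT the interval ran from -0.21 to 0.70 in OLs against OPCs and from -0.42 to 0.50 in astrocytes against OPCs. For Thr-TGT, changes of either sign within these bounds were therefore not excluded. The interval given for Thr-AGT held increases only, and that for Thr-CGT held decreases only. These intervals were not adjusted for the number of pools tested, and neither difference passed the threshold after adjustment.

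The balance among the threonine tRNAs was given as the share of each pool in the threonine sum, which does not depend on the scaling of a library. Thr-AGT made up 52.4, 49.2 and 47.2% of threonine tRNA in the OPC libraries, 53.0 and 55.6% in OLs, and 59.3 and 56.8% in astrocytes. Thr-CGT made up 26.6, 30.2 and 31.0% in OPCs, 25.5 and 23.5% in OLs, and 19.7 and 20.9% in astrocytes. Thr-TGT stayed between 20.6 and 22.4% in all 7 libraries. For both Thr-AGT and Thr-CGT the 3 groups did not overlap, and OLs lay between OPCs and astrocytes. Groups did not overlap for 46.2% of all 39 pool shares in OLs against OPCs. This held for 23.1% in astrocytes against OPCs and for 53.8% in OLs against astrocytes. The widest 95% Wilson interval of any threonine pool share spanned 1.63 percentage points.

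The share of Thr-CGT differed by -0.53 in astrocytes against OPCs on the log2 scale (SE 0.08, limma adjusted p = 0.0675). By p it ranked 1st of the 39 pools tested for their share within an amino acid, and 0% of the 39 passed 0.01 in that comparison, as in the other comparisons of such shares. Its difference was -0.25 in OLs against OPCs (SE 0.08, adjusted p = 0.126) and 0.27 in OLs against astrocytes (SE 0.09, adjusted p = 0.174). The share of Thr-AGT differed by 0.23 in astrocytes against OPCs (SE 0.06, adjusted p = 0.112) and by 0.13 in OLs against OPCs (SE 0.06, adjusted p = 0.186). Shares of threonine sum to the whole and that of Thr-TGT was nearly constant, so the Thr-AGT and Thr-CGT shares describe the same shift. These shares were tested without a variance trend. The alternative with a trend ran it over the mean log2 share, not over the mean level. With a trend, those of Thr-CGT and Thr-AGT passed 0.01 in astrocytes against OPCs (adjusted p = 5.3e-07 and 1.0e-05) and in OLs against OPCs (0.0025 and 0.00484). With a trend, 5 of all 39 pools passed in the former comparison and 9 in the latter. Over 12 alternatives, the replicate block not among them, the adjusted p of Thr-CGT in astrocytes against OPCs ran from 5.3e-07 to 0.25.

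**Figure D2:**
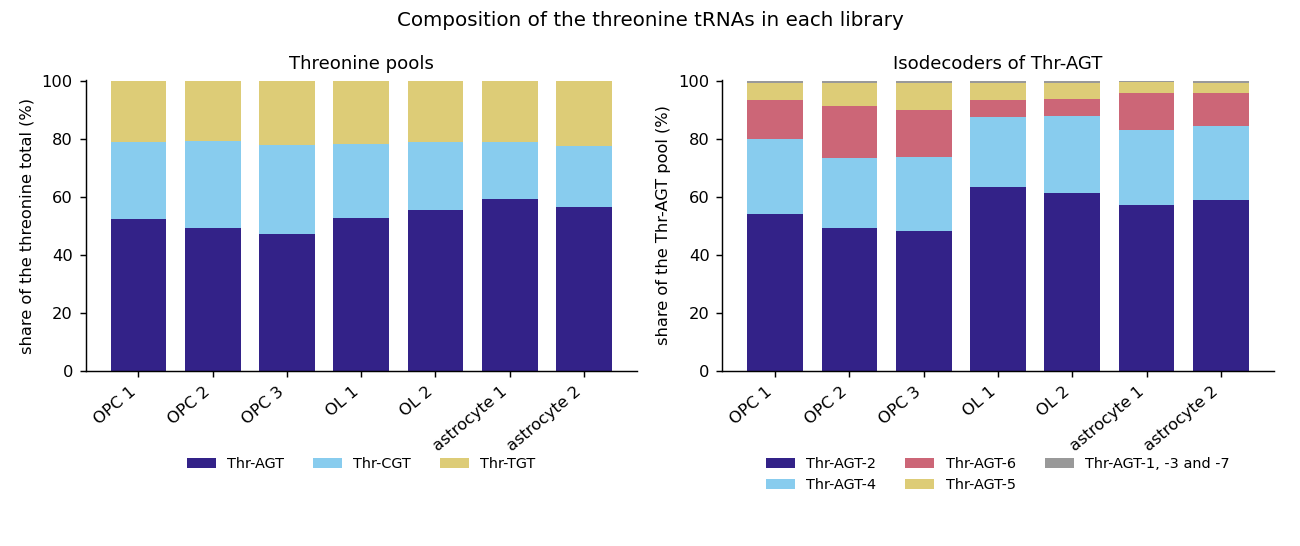
Left, the share in percent of each threonine pool in the threonine sum of each library; right, the share in percent of each isodecoder in the Thr-AGT pool, with the 3 rarest joined. Thr-CGT takes 26.6 to 31.0% in OPCs and 19.7 and 20.9% in astrocytes, and Thr-AGT-6 takes 13.4 to 17.9% of its pool in OPCs and 5.84 and 5.81% in OLs.

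The pools differed in how many isodecoders carried them. In Thr-AGT, 4 of 7 isodecoders carried nearly all reads: Thr-AGT-2 with a mean of 56.3% of the pool, Thr-AGT-4 with 25.3%, Thr-AGT-6 with 11.9% and Thr-AGT-5 with 6.0%. Thr-CGT was spread over 4 isodecoders, with Thr-CGT-2 at 39.2%, Thr-CGT-1 at 25.5%, Thr-CGT-3 at 24.9% and Thr-CGT-4 at 10.4%. Thr-TGT was mostly Thr-TGT-1, which held 94.95 to 97.2% of its pool in every library. Levels of different tRNAs also depend on how well each was ligated, copied and mapped, which was not measured here. Isodecoders that differ at few bases can share reads, so a split between close copies is uncertain.

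The other 5 isodecoders were rare. Thr-AGT-1 ranged from 5.54 RPM in an astrocyte library to 19.9 RPM in an OL library, Thr-AGT-7 from 13.2 to 25.5 RPM, Thr-TGT-2 from 20.2 to 45.2 RPM and Thr-TGT-3 from 47.3 to 99.1 RPM. Thr-AGT-3 had between 1 and 7 reads a library, or 0.426 to 3.12 RPM. Thr-AGT-3 was near the 3-read limit in all groups, so no fold is given for it, although it entered the counts and medians over the 14.

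**Figure D3:**
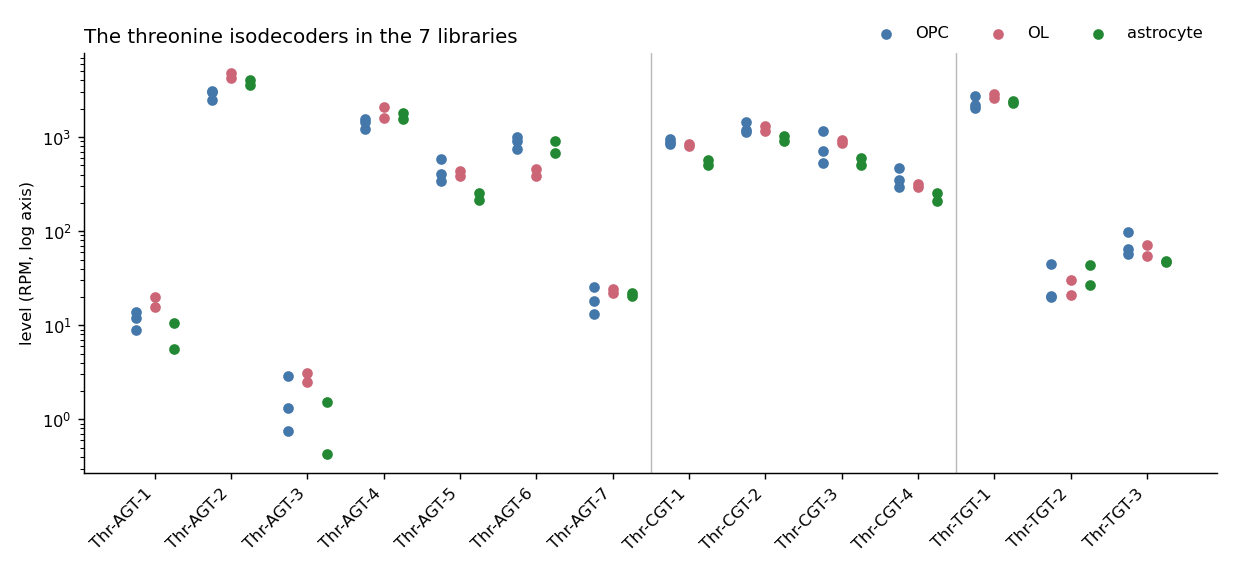
Level in RPM, on a log axis, of the 14 threonine isodecoders in the 7 libraries, with vertical lines between the pools. Thr-AGT-6 lies at 387 and 458 RPM in OLs and between 684 and 999 RPM in all other libraries, and the Thr-CGT isodecoders are lower in astrocytes than in OLs.

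In OLs against OPCs, Thr-AGT-6 was the only threonine isodecoder past the threshold, and it was lower in OLs. The other isodecoders and the summed Thr-AGT pool did not pass, and differences between isodecoders were not tested. Thr-AGT-6 was at 753, 901 and 999 RPM in the OPC libraries, 387 and 458 RPM in OLs, and 907 and 684 RPM in astrocytes. Both OL libraries lay below the other 5, and the astrocyte libraries overlapped with the OPCs. The level of Thr-AGT-6 fell by 1.06 on the log2 scale from OPCs to OLs (SE 0.16, limma adjusted p = 0.0062), the 9th smallest p of the 192 isodecoders tested.

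Thr-AGT-2, the most abundant isodecoder of the pool, was at 3066, 2482 and 2998 RPM in OPCs, 4209 and 4859 RPM in OLs, and 4035 and 3599.8 RPM in astrocytes. All OL and astrocyte libraries lay above all OPC libraries. In OLs against OPCs its level differed by 0.67 (SE 0.13, adjusted p = 0.0116), which missed the threshold of 0.01. Thr-AGT-4, the second isodecoder of the pool, was at 1449, 1209 and 1558 RPM in OPCs and 1599.7 and 2084 RPM in OLs, so OLs again lay above OPCs. Thr-AGT-5, at 345, 403 and 580.4 RPM in OPCs and 382 and 440.5 RPM in OLs, overlapped.

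The main isodecoders of the other pools were closer to even between OLs and OPCs. Thr-CGT-2 was at 1186, 1141 and 1454 RPM in OPCs and 1165 and 1306 RPM in OLs, a difference of -0.02 (SE 0.14, adjusted p = 0.915). Thr-TGT-1 was at 2174, 2024 and 2715 RPM in OPCs and 2621 and 2859.8 RPM in OLs, a difference of 0.26 (SE 0.14, adjusted p = 0.248). Thr-CGT-1 was at 846, 879 and 954 RPM in OPCs and 840.1 and 796 RPM in OLs, a difference of -0.13 (SE 0.12, adjusted p = 0.495). The latter lay just below the OPC range in OLs.

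Of the 14 isodecoders, 1 was called at 0.01 in OLs against OPCs, where 5.73% of all 192 were called, 4.69% as lower and 1.04% as higher. At 0.05, 2 passed, where 18.2% of all did. At an unadjusted p under 0.05, 3 of the 14 passed by limma, where 32.8% of all did. OLs lay above OPCs without overlap for 3 isodecoders, Thr-AGT-1, Thr-AGT-2 and Thr-AGT-4, and below for 2, Thr-AGT-6 and Thr-CGT-1, and the other 9 overlapped. Over all isodecoders 53.1% did not overlap, as 30.2% lay above and 22.9% below. The median difference was 0.11 over the 14, -0.02 over the 13 without Thr-AGT-3, and 0.09 over all 192. The call of Thr-AGT-6 was lost without OPC replicate 1 (adjusted p = 0.0165), OPC replicate 2 (0.0164), OL replicate 1 (0.0754) or OL replicate 2 (0.0405), without the filter on low values (0.0259) and without the variance trend (0.0218). The sign of its change held over 14 alternatives, between -1.18 and -0.94, with adjusted p from 0.00037 to 0.0754. This range, like the other ranges over alternatives, leaves out the fit with the replicate number as a block, which gave -0.97 (adjusted p = 2.18e-06).

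Within the Thr-AGT pool, Thr-AGT-6 took 13.4, 17.9 and 16.2% of the reads in the OPC libraries, 5.84 and 5.81% in OLs, and 12.9 and 11.2% in astrocytes. Thr-AGT-2 took 54.4, 49.4 and 48.5% in OPCs, 63.6 and 61.6% in OLs, and 57.3 and 59.0% in astrocytes. For both, the 3 groups did not overlap and the OL libraries were at the far end. Over all 184 isodecoder shares, 55.4, 43.5 and 58.7% did not overlap in OLs against OPCs, astrocytes against OPCs and OLs against astrocytes. The share of Thr-AGT-4 was nearly constant, between 24.1 and 26.4% in all 7 libraries. The widest 95% Wilson interval of a share in this pool spanned 2.25 percentage points.

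The share of Thr-AGT-6 differed by -1.43 in OLs against OPCs (SE 0.15, adjusted p = 0.0119) and by -1.04 in OLs against astrocytes (SE 0.16, adjusted p = 0.0153), over 184 isodecoders tested. The difference between astrocytes and OPCs was -0.39 (SE 0.16, adjusted p = 0.272). The share of Thr-AGT-2 differed by 0.30 in OLs against OPCs (SE 0.07, adjusted p = 0.0567). Shares of a pool sum to the whole, so this value is not independent of Thr-AGT-6, on which the family was selected. None of the 14 shares passed 0.01 in any of the 3 comparisons, where 2.17% of all shares did in OLs against OPCs, 0% in astrocytes against OPCs and 3.8% in OLs against astrocytes. By limma at an unadjusted p under 0.05, 4, 3 and 2 of the 14 threonine shares passed in these comparisons, where 31.0, 23.4 and 27.2% of all shares did. Without OL replicate 1 or 2 the adjusted p of the share of Thr-AGT-6 in OLs against OPCs rose to 0.0912 and 0.121, and over 12 alternatives it ran from 0.00345 to 0.121.

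In astrocytes against OPCs, the Thr-CGT isodecoders were lower together, while those of Thr-AGT were split, with 3 higher and 4 lower. The 2 leading ones, Thr-AGT-2 and Thr-AGT-4, were among the higher. None passed the threshold. Thr-CGT-1 was at 846, 879 and 954 RPM in the OPC libraries and 501 and 570.2 RPM in the astrocyte libraries, with the OLs close to OPCs. Its level differed by -0.74 (SE 0.15, adjusted p = 0.0241). The other 3 Thr-CGT isodecoders had lower means as well, so that all 4 differed in the same direction, from -0.74 to -0.37. The ranges were -0.71 to -0.35 after rescaling to the listed cytosolic tRNAs and -0.71 to -0.34 with median-of-ratios scaling.

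Thr-CGT-2 was at 1020.1 and 915 RPM in astrocytes, below every OPC library (-0.37, SE 0.16, adjusted p = 0.221). Thr-CGT-4, at 297, 352 and 469 RPM in OPCs, was at 211 and 258 RPM in astrocytes and did not overlap either. Thr-CGT-3 was at 532, 706 and 1176 RPM in OPCs and 602 and 499.7 RPM in astrocytes, and overlapped. OPC replicate 3 stood apart from both other OPC libraries in Thr-CGT-3.

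Thr-AGT-5 was also low in astrocytes, at 252 and 217 RPM, against 345 to 580.4 RPM in OPCs and 382 and 440.5 RPM in OLs. Astrocytes did not overlap with either group. Thr-AGT-4, at 1820 and 1567 RPM in astrocytes, lay above every OPC library. Thr-AGT-2 differed by 0.43 (SE 0.14, adjusted p = 0.132), and Thr-AGT-6 by -0.16 (SE 0.19, adjusted p = 0.628). Thr-TGT-1, at 2411 and 2334 RPM in astrocytes, differed by 0.05 (SE 0.15, adjusted p = 0.829).

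Of the 14 isodecoders 0 were called at 0.01 in astrocytes against OPCs by limma, where 0% of all 192 were, and 5 of the 14 passed an unadjusted p under 0.05, where 20.8% of all did. At 0.05 after adjustment 1 passed, Thr-CGT-1, against a background of 7.29%. Astrocytes lay above OPCs without overlap for 2 isodecoders, Thr-AGT-2 and Thr-AGT-4. They lay below for 5, Thr-AGT-5, Thr-CGT-1, Thr-CGT-2, Thr-CGT-4 and Thr-TGT-3. Of all isodecoders 39.6% did not overlap, 16.7% above and 22.9% below. The median difference was -0.39 over the 14, -0.37 over those 13, and 0.01 over all 192. Without OPC replicate 3, Thr-CGT-1 passed 0.01 (adjusted p = 0.0044), as did 17 of all 192 isodecoders, and without astrocyte replicate 1 or 2 its adjusted p was 0.14 and 0.127. Over 14 alternatives it ran from 0.00242 to 0.14.

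OLs against astrocytes compared both fates reached from OPCs. Thr-AGT-6 was lower in OLs and most other threonine isodecoders were higher, with 0 of 14 past 0.01. Thr-AGT-6 differed by -0.90 (SE 0.20, adjusted p = 0.0141) and Thr-CGT-1 by 0.61 (SE 0.15, adjusted p = 0.0255). Thr-AGT-2 differed by 0.25 (SE 0.14, adjusted p = 0.311), Thr-CGT-2 by 0.35 (SE 0.16, adjusted p = 0.19) and Thr-TGT-1 by 0.21 (SE 0.15, adjusted p = 0.449).

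All 4 Thr-CGT isodecoders lay above the astrocytes in both OL libraries. Over the 14, OLs lay above astrocytes without overlap for 10 and below for 1, where 60.4% of all 192 did not overlap, 40.6% above and 19.8% below. The 3 that overlapped were Thr-AGT-4, Thr-AGT-7 and Thr-TGT-2. The background at 0.01 was 6.25%, with 5.21% lower and 1.04% higher. At 0.05 it was 9.38%, and 2 of the 14 passed. At an unadjusted p under 0.05, 5 of the 14 passed by limma, where 27.1% of all did. The median difference was 0.36 over the 14, 0.35 over those 13, and 0.11 over all 192.

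This comparison used all 7 libraries, so that OPCs entered the estimate of the spread. Without OPC replicate 3 in the fit, 4 threonine isodecoders passed 0.01, namely Thr-AGT-5, Thr-AGT-6, Thr-CGT-1 and Thr-CGT-3, and the count over all 192 isodecoders rose from 12 to 20. Thr-AGT-6 passed 0.01 after rescaling to the listed cytosolic tRNAs (adjusted p = 0.0068) and after median-of-ratios scaling (0.000541), where 13 of all 192 passed in each, and its adjusted p over 16 alternatives ran from 0.000541 to 0.159. Both OL libraries had fewer reads outside the listed cytosolic tRNAs than both astrocyte libraries. After rescaling without those reads, the median over the 14 was 0.30, where over all 192 it was 0.05. With median-of-ratios scaling it was 0.27 over the 14 and 0.02 over all 192. How many isodecoders did not overlap under these scalings was not counted over all 192.

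**Figure D4:**
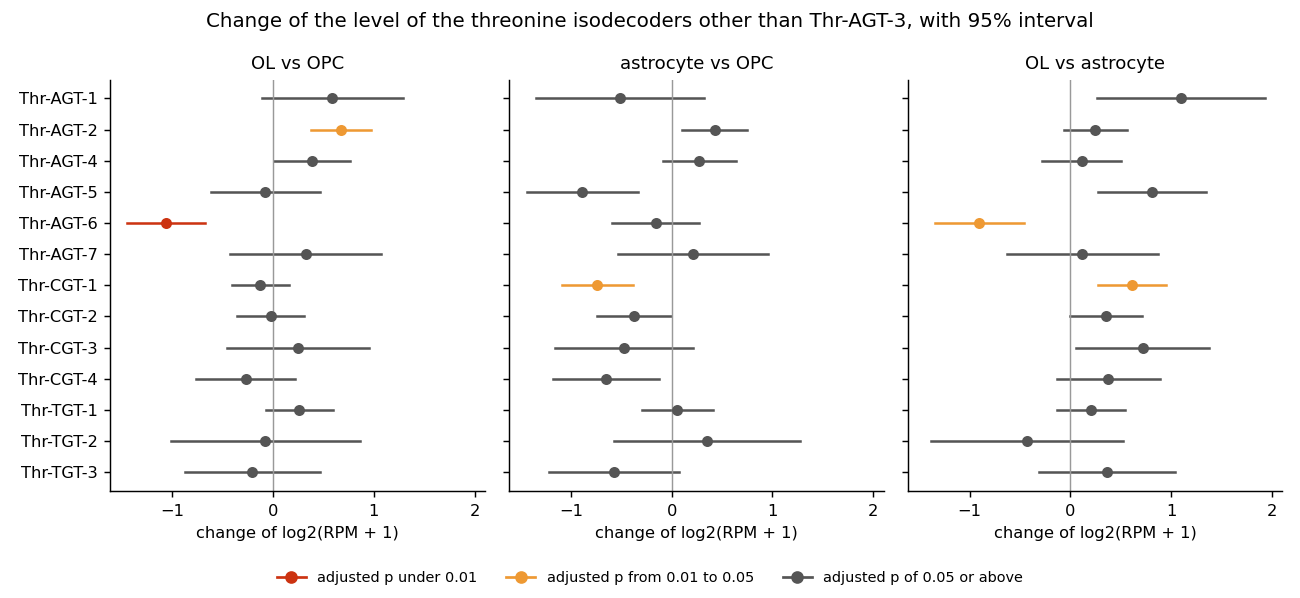
Change of log2(RPM + 1) of the threonine isodecoders other than Thr-AGT-3 in the 3 comparisons, with the limma estimate as a point and its 95% interval as a bar, coloured by adjusted p. Thr-AGT-6 is at -1.06 in OLs against OPCs, the only point under 0.01, and the 4 Thr-CGT isodecoders lie between -0.74 and -0.37 in astrocytes against OPCs.

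The comparisons of OLs and of astrocytes with OPCs share the OPC libraries, so their values are set side by side only. Thr-AGT-2 differed by 0.67 in OLs and 0.43 in astrocytes, and Thr-AGT-6 by -1.06 and -0.16. In the same order, Thr-CGT-1 differed by -0.13 and -0.74, Thr-CGT-2 by -0.02 and -0.37, and Thr-TGT-1 by 0.26 and 0.05. Which of these differ between both fates was tested by OLs against astrocytes, where none passed 0.01.

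Levels of each threonine pool over the 7 libraries were compared with those of the 44 other pools whose mean reached 100 RPM, as the root mean square difference between log2 profiles centred on their own mean. Thr-AGT was most like Pro-TGG (0.0788) and Val-TAC (0.0868), where the median over the 44 pools was 0.219. Thr-CGT was most like Gln-TTG (0.132) and Ser-AGA (0.192), with a median of 0.269. Thr-TGT was most like Leu-AAG (0.0719) and Arg-ACG (0.0724), with a median of 0.19. These are descriptions over 7 libraries that share their depth and scaling, and Thr-CGT had no neighbour as close as those of the other 2 pools.

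The threonine pools also belong to larger classes of tRNAs that share a modification. Of the 8 pools whose first anticodon base is an A that becomes inosine, which include Thr-AGT, 0 were called at 0.01 in any comparison. By limma 2, 1 and 0 passed an unadjusted p under 0.05 in OLs against OPCs, astrocytes against OPCs and OLs against astrocytes. Over all 52 pools 0% were called at 0.01 in each, and 25, 11.5 and 15.4% passed that unadjusted level. Their median in OLs against OPCs was 0.21, and 0.17 without Thr-AGT, where the median over all 52 pools was 0.12. It was -0.01 in astrocytes against OPCs and 0.12 in OLs against astrocytes. In OLs against OPCs the largest difference among them was that of Ile-AAT, at 0.38 (SE 0.08, adjusted p = 0.0609).

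Of the 13 pools that read codons beginning with A, 0 were called at 0.01 by limma. At an unadjusted p under 0.05, 5, 3 and 2 passed in the same order, where 25, 11.5 and 15.4% of all 52 pools did. At an adjusted p under 0.05, 1 of the 13, iMet-CAT, passed as higher in OLs than in OPCs, where 7.69% of all pools passed. Their median in OLs against OPCs was 0.13, and 0.11 without the 3 threonine pools. It was 0.01 in astrocytes against OPCs and 0.14 in OLs against astrocytes. Asn-GTT had the largest difference of the class in OLs against OPCs, at 0.39 (SE 0.12, adjusted p = 0.132).

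Of the 9 pools known for 3-methylcytidine in the anticodon loop, 3 of them for threonine, 0 were called at 0.01 by limma. In each comparison 2 passed an unadjusted p under 0.05, where 25, 11.5 and 15.4% of all 52 pools did in the same order. Their median was 0.13 in OLs against OPCs, -0.11 in astrocytes against OPCs and 0.20 in OLs against astrocytes, and 0.09, -0.12 and 0.17 without the threonine pools. Within this class Thr-AGT had the largest difference in OLs against OPCs, and Thr-CGT had it in both other comparisons. The files used here give levels only, so the modifications themselves were not measured.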

How the data were processed

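QuantM-seq measured tRNAs in 3 OPC, 2 OL and 2 astrocyte libraries, grouped by the deposited labels. According to the methods, the authors trimmed adapters and the 3′ CCA with cutadapt, aligned reads with Bowtie2 to high-confidence mature tRNAs of mm10 with identical genes collapsed, dropped reads of low mapping quality, counted with featureCounts and kept replicates separate. The authors deposited RPM, counts scaled to 1000000 reads assigned to cytosolic and mitochondrial tRNAs. Their DESeq2 tables hold only their own fold changes and p-values and were not used. All RPM values were whole multiples of 1 read within 0.01 reads, which gave the depth. No count test was run on them.

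The pseudocount was 1 RPM, and log2(RPM + 1) was fitted with limma 3.58.1 (lmFit, then two-sided eBayes) under R 4.3.3. A variance trend was used for levels and none for shares of a pool or an amino acid. For rare tRNAs this scale understates a change. The Benjamini-Hochberg adjustment ran over the whole of each fit, that is 52 pools, 192 isodecoders whose mean reached 1 RPM, 184 isodecoder shares or 39 pool shares, and the threshold was 0.01. Each comparison with OPCs used its own 5 libraries, and OLs against astrocytes used all 7. The threonine sum was compared by exact permutation in scipy. Statistics were given for the pools, for the most abundant isodecoder of each pool and for isodecoders with an adjusted p under 0.05 for level or share, and the remaining isodecoders only by level. Replicate libraries differed by more than counting error (chi-square per degree of freedom of 31.0 or more over all isodecoders and 5.66 to 36.3 over 13 threonine isodecoders). The methods call them biological replicates, and p-values measure the spread between these libraries. The members, lists, tests and naming rule were chosen with earlier results of these data known. Alternatives covered pseudocounts, filters, scalings, the trend, the threshold, the libraries in the fit, the replicate number and each library left out, and 1, without the pool listed at 0 in every library, was chosen after seeing the data. The pipeline was tested on simulated data.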

Additional observations from a re-analysis of the deposited data

How the results depend on the processing

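No threonine pool was called in any comparison under any alternative. Threonine isodecoders called in OLs against OPCs numbered 1, with 11 of 192 called over all isodecoders. They numbered 0 without a filter (1 of 217 over all) or without the variance trend (2 of 192). They numbered 2 with a minimum mean of 100 RPM (19 of 122), with median-of-ratios scaling (22 of 192), at a threshold of 0.05 (35 of 192) or with all 7 libraries in the fit (14 of 192), and 0 to 2 when 1 library was left out (0 to 29 over all). In astrocytes against OPCs they numbered 0 (0 over all), 2 with median-of-ratios scaling (17 of 192), 1 at 0.05 (14 of 192) or with all 7 libraries (10 of 192), and 0 to 1 with a library left out (0 to 17). In OLs against astrocytes they numbered 0 (12 of 192), 1 with a minimum of 100 RPM (13 of 122), with either scaling (13 of 192 in each) or with those 4 libraries alone (14 of 192), 2 at 0.05 (18 of 192), and 0 to 4 with a library left out (0 to 20). Isodecoder shares called in OLs against OPCs numbered 0 (4 of 184 over all), and 1 with a pseudocount of 10 (12 of 184), a minimum of 100 RPM (16 of 110), a trend (10 of 184), a threshold of 0.05 (26 of 184) or all 7 libraries (17 of 184). In OLs against astrocytes they numbered 0 (7 of 184), and 1 with a minimum of 100 RPM (15 of 110), a trend (15 of 184) or a threshold of 0.05 (26 of 184). Pool shares called numbered 2 with a trend in OLs (9 of 39 over all) and in astrocytes (5 of 39), each against OPCs. The cause of these differences was not tested. The difference of the threonine sum between astrocytes and OPCs, -35.6 RPM, turned to 166.8 after rescaling to the cytosolic tRNAs and 111.5 with median-of-ratios scaling, and ranged from -609.7 to 833.7 with a library left out, with the higher sign without OPC replicate 3 (833.7) and astrocyte replicate 2 (524.8). No pool or isodecoder of threonine changed sign with the scaling.

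OLs are stated to come from 2 of the OPC replicates, but not from which. Some OL and OPC libraries therefore share an origin, and whether same-numbered ones do is not known. The main fit treated them as independent. Over 192 isodecoders the deviations of OPCs and OLs from their group means correlated at 0.118 for number 1 and -0.111 for number 2. Those of OPCs and astrocytes correlated at -0.0746 and 0.343, and those of OLs and astrocytes at -0.294 for both numbers. Deviations of 2 libraries from their own mean are exact opposites, so these values do not settle the pairing. With the replicate block, which left out OPC replicate 3, 5 threonine isodecoders of 45 called over all 192 were called in OLs against OPCs and 2 of 24 in astrocytes against OPCs, and the Thr-CGT and Thr-CGT-2 differences in OLs against OPCs turned to 0.135 and 0.0844. With single libraries left out, differences near 0 changed sign. In OLs against OPCs, Thr-CGT ranged from -0.116 to 0.135, with the higher sign without OPC replicate 3 or OL replicate 1, and Thr-CGT-2 from -0.105 to 0.0844 with the same libraries. In astrocytes against OPCs, Thr-TGT ranged from -0.0498 to 0.172 and Thr-TGT-1 from -0.0343 to 0.177, both lower only without OPC replicate 2, and Thr-AGT-6 from -0.36 to 0.0455, higher only without astrocyte replicate 2. The share of Thr-CGT-2 in its pool in OLs against OPCs ranged from -0.0569 to 0.0537 (higher without OPC replicate 1 or OL replicate 1). In OLs against astrocytes, that of Thr-TGT-1 ranged from -0.000739 (without OL replicate 1) to 0.009 and that of Thr-CGT-1 from -0.0196 (without astrocyte replicate 1) to 0.225. The share of Thr-TGT in threonine ranged from -0.0183 to 0.0294 in OLs against OPCs (lower without OPC replicate 2 or OL replicate 1), from -0.00462 to 0.0835 in astrocytes against OPCs and from -0.0779 to 0.0102 in OLs against astrocytes, both turned without astrocyte replicate 2. Where a group was left with 1 library, its spread was assumed to be that of the others. With 2 or 3 libraries a group, small changes can be missed.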
